A study of Mus musculus with 9 samples.

Results

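Trpm5, Pou2f3, Chat and Il25, genes of tuft-like microvillous cells, and Ascl3, Foxi1 and Cftr, genes of ionocyte-like microvillous cells, were followed through RNA-seq of the mouse main olfactory epithelium. The 7 genes were taken by symbol from a table of 55291 genes and were read as a set of 4 against a set of 3. The 9 mice, aged 8 to 12 weeks, were all on a C57BL/6 background. They comprised 3 wild-type mice, 3 Ms4a cluster-/- mice (the Ms4a cluster knockout, in which Cas9 removed the whole array of Ms4a genes) and 3 Ms4a6c-/- mice (the Ms4a6c knockout, made by homologous recombination in the KOMP programme). Neither label names a conditional allele or a Cre driver, and the same 3 wild-type mice served as the reference for both knockouts. The paper calls its wild-type controls littermates, but the labels do not name their line. Line and litter therefore cannot be told apart from genotype. Ms4a genes encode four-transmembrane proteins, some of which act as chemoreceptors in a subset of olfactory neurons.

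The olfactory epithelium holds, besides sensory neurons and their supporting cells, a scattered population of short cells that carry microvilli and no odorant-receptor cilia. Those of the tuft type depend on the transcription factor Pou2f3, signal through a taste-like cascade that ends in the cation channel Trpm5, can make acetylcholine through choline acetyltransferase (Chat), and in other mucosae release the cytokine interleukin 25 (Il25), which starts type 2 immune responses. Those of the ionocyte type depend on the transcription factors Ascl3 and Foxi1 and carry the chloride channel Cftr together with a vacuolar proton pump.

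Expected counts summed to between 13954591 and 21987174 per mouse. Ms4a6c had 53.95 to 90.34 expected counts in wild-type mice, 0 in each Ms4a cluster knockout and 0 to 2.35 in the Ms4a6c knockouts. The 21 genes with an Ms4a symbol summed to 0 in each Ms4a cluster knockout. Markers of the dissected tissue were present in all mice, with summed levels of 11200 to 14200 CPM for 10 genes of mature sensory neurons and 24600 to 32400 CPM for 7 genes of sustentacular cells. The libraries of wild type 1 and Ms4a cluster knockout 2 stood apart: 14 genes of secretory glands took 19.6% and 19.2% of their counts, against 0.489% to 3.96% in the other 7 mice. Levels below are CPM, expected counts divided by the library total and put on a common scale, on libraries scaled by TMM, a scaling that sets most genes level between mice, so these glandular counts do not lower every other gene. In whole tissue, fewer cells of a type and less RNA per cell cannot be told apart.

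The upstream sequences of the 3 ionocyte-like members and of Trpm5 are shown because these are the members with the highest counts and with a matched upstream sequence, and because their base composition differs widely. Of the 7 members, 5 (Trpm5, Chat, Ascl3, Foxi1 and Cftr) were matched by symbol in the RefSeq (GRCm38.p6) sequences used here. Each line gives the 250 bases before the annotated start, 5′ to 3′ on the strand of the gene. Capitals mark any of 5 short words searched on both strands, namely TGTTTA (a forkhead core), TATAAA (the TATA box), GGGCGG (the GC box), CCAAT (the CCAAT box) and TTGCAT (part of the octamer bound by POU factors), with overlapping matches run together.
Ascl3: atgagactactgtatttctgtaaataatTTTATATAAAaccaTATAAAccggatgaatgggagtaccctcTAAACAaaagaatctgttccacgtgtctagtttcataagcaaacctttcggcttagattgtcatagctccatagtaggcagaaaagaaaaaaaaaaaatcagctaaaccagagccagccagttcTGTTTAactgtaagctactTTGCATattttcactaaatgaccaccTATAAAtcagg
Foxi1: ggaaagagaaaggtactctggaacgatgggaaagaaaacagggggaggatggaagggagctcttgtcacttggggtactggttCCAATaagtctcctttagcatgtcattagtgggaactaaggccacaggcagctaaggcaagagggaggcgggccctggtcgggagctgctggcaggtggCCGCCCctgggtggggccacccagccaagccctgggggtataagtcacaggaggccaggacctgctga
Cftr: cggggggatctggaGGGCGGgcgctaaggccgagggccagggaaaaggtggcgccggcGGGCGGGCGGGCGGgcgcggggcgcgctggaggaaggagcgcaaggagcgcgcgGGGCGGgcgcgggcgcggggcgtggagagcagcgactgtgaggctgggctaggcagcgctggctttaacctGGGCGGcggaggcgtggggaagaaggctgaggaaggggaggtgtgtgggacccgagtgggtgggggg
Trpm5: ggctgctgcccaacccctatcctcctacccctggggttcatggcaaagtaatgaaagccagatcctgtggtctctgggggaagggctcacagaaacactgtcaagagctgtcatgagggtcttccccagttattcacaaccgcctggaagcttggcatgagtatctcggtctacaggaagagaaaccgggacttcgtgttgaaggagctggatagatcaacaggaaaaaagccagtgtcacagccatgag

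The Ascl3 sequence lies at chr7:109731733-109731982, Foxi1 at chr11:34208090-34208339, Cftr at chr6:18170437-18170686 and Trpm5 at chr7:143094643-143094892. Only the Cftr sequence is on the plus strand. The ionocyte-like members covered both ends of base composition, with a GC content of 34.8% for Ascl3, 58.8% for Foxi1 and 76.4% for Cftr, beside a median of 52.4% over 32851 promoters. Trpm5 stood at 52.8%. TGTTTA was found in 1 of the 5 member sequences, Ascl3, with 2 matches, and in 12.0% of all promoters of this length. TATAAA was also found in Ascl3 alone, with 4 matches, and in 12.4% of all promoters. GGGCGG was found in Foxi1 and Cftr, in the latter 6 times, and in 32.7% of all promoters. TTGCAT was found once, in Ascl3, and in 9.45% of all promoters. CCAAT was found in Foxi1 and Chat and in 33.8% of all promoters. No word was found in the Trpm5 sequence, which says only that these letters were not in this window.

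The ionocyte-like members were the more abundant set in every mouse. Levels were compared between genes only after division by the exonic length in GENCODE M21 (GRCm38), from 700 bases for Ascl3 to 7765 bases for Cftr. Ascl3 was highest at 44.1 ± 4.25 CPM per kilobase (SD, n = 9 mice), followed by Foxi1 at 10.3 ± 1.09 and Cftr at 3.39 ± 0.228 CPM per kilobase. Pou2f3 reached 2.1 ± 0.37 and Trpm5 1.55 ± 0.178 CPM per kilobase, and Pou2f3 was above Trpm5 within each mouse although their ranges over mice met, at 1.65 to 2.66 and 1.3 to 1.83. Il25, at 0.27 ± 0.102 CPM per kilobase, and Chat, at 0.0783 ± 0.039, also had ranges that met. The ranges of all other neighbours in this order were separate. The order rests on the annotated exons, since a gene whose short or long transcript prevails in this tissue has another effective length.

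Summed per kilobase, the 3 ionocyte-like members gave 48.8 to 65.5 CPM per kilobase and the 4 tuft-like members 3.58 to 4.61. The ratio of the former to the latter was 13.8 ± 1.15 in wild type, 14.7 ± 0.624 in the Ms4a cluster knockout and 15.1 ± 1.44 in the Ms4a6c knockout (SD, n = 3 each). The ranges of the 3 genotypes overlapped, at 13.1 to 15.1, 14.2 to 15.4 and 13.9 to 16.7. This ratio does not depend on the scaling of libraries, and Ascl3 supplies most of its upper term.

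**Figure D1:**
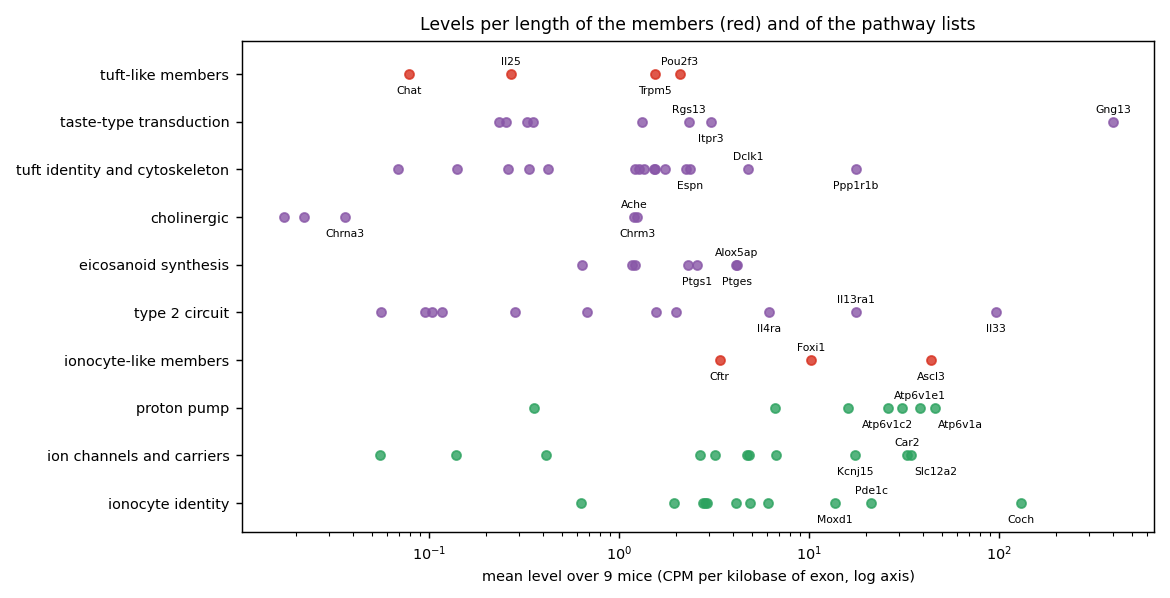
Mean level over 9 mice in CPM per kilobase of exon, on a log axis, for the 7 members (red) and for the tested genes of 5 tuft lists (purple) and 3 ionocyte lists (green), with the 3 highest genes of each list named. Ascl3 (44.1) and Foxi1 (10.3) lie above all 4 tuft-like members, and Gng13, Coch, Il33 and Atp6v1a lie above Ascl3.

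No member differed between genotypes at an adjusted p under 0.05. With wild type as the reference, 0 of 7 members were called in the Ms4a cluster knockout, where 0.0258% of 23225 tested genes were, and 0 of 7 in the Ms4a6c knockout, where 0.435% were, while between the knockouts 0 of 7 were called beside 0.443% of tested genes (edgeR quasi-likelihood test with Benjamini-Hochberg adjustment over all tested genes). All 7 members passed the minimum of 10 counts over the 9 mice. At an unadjusted p under 0.05 the counts were 1 of 7 (Chat), 1 of 7 (Foxi1) and 0 of 7, beside 4.93%, 10.5% and 9.38% of all tested genes. DESeq2 called 0 members in each comparison as well, though it gave no adjusted p for Chat and Il25 in the Ms4a6c knockout against wild type. Of the 23225 genes, DESeq2 called 18, 345 and 271 in the same order of comparisons. At an unadjusted p under 0.05 it had 0, 1 (Foxi1) and 0 members, beside 740, 1965 and 1754 of all tested genes.

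**Figure D2:**
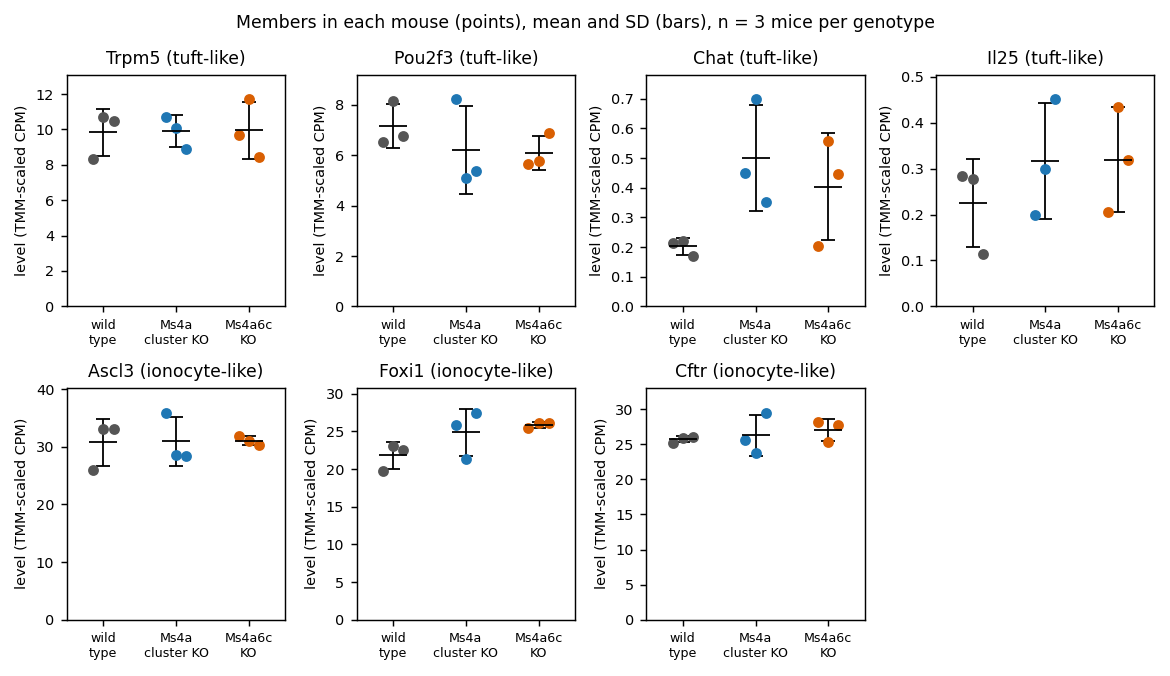
Level of each member in TMM-scaled CPM (vertical axes from 0) in each mouse (points) by genotype, with the mean and SD of 3 mice (bars). The points of the genotypes overlap except for Chat between wild type and the Ms4a cluster knockout and for Foxi1 between wild type and the Ms4a6c knockout.

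Ascl3, a bHLH factor that marks ionocyte-like cells and their precursors, lies on chromosome 7 (109727465 to 109731726, minus strand). Its level was 26.0, 33.1 and 33.1 CPM in the wild-type mice, 35.9, 28.5 and 28.4 CPM in the Ms4a cluster knockouts and 31.8, 31.0 and 30.3 CPM in the Ms4a6c knockouts. Wild type 1 was the lowest of the 9 and the Ms4a6c knockouts lay within the range of wild type. Against wild type, the Ms4a cluster knockout had a log2 fold change of 0.01 with a 95% interval of -0.25 to 0.27, and the Ms4a6c knockout one of 0.01 with an interval of -0.24 to 0.27. For Ascl3 these intervals leave room for a level between 0.844 and 1.2 times that of wild type in the Ms4a cluster knockout and between 0.846 and 1.21 times in the Ms4a6c knockout.

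Foxi1, the forkhead factor that directs ionocyte fate and the genes of the proton pump, lies on chromosome 11 (34204338 to 34208089, minus strand). Its level was 19.8, 23.1 and 22.6 CPM in wild type, 25.8, 21.4 and 27.5 CPM in the Ms4a cluster knockouts and 25.4, 26.1 and 26.1 CPM in the Ms4a6c knockouts. All Ms4a6c knockouts lay above all wild-type mice, a separation of groups in either direction that 18.3% of all tested genes showed in this comparison. In the Ms4a6c knockout the log2 fold change was 0.24 (SE 0.10, interval 0.02 to 0.46), with an unadjusted p of 0.034 and an adjusted p of 0.43 by edgeR. It was 0.20 (SE 0.10, adjusted p = 0.968) in the Ms4a cluster knockout, where Ms4a cluster knockout 2 lay within the wild-type range. The lowest wild-type value came from a gland-rich library. Without the 2 gland-rich libraries the log2 fold change of Foxi1 was 0.18 in the Ms4a6c knockout, with an adjusted p of 0.227, and 0.22 in the Ms4a cluster knockout, with an adjusted p of 0.458.

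Cftr, a chloride and bicarbonate channel, lies on chromosome 6 (18170687 to 18322768, plus strand). Its level was 25.2, 25.9 and 26.1 CPM in wild type, 25.6, 23.7 and 29.5 CPM in the Ms4a cluster knockouts and 28.2, 25.3 and 27.7 CPM in the Ms4a6c knockouts. The 3 wild-type values were close together and each knockout had a mouse inside their range. Cftr had log2 fold changes of 0.03 (interval -0.16 to 0.23) in the Ms4a cluster knockout and 0.07 (interval -0.12 to 0.27) in the Ms4a6c knockout. Cftr was the steadiest member, with a coefficient of variation of 6.72% over the 9 mice against 4.85% from counting alone. Among 8676 tested genes with a mean of 5 to 50 CPM the median coefficient was 10.1%, and 19.7% of them varied less than Cftr. Ascl3 (9.63%) and Foxi1 (10.6%) stood near that median.

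Trpm5, the calcium-activated cation channel of taste and tuft cells, lies on chromosome 7 (143069153 to 143094642, minus strand). Its level was 8.32, 10.7 and 10.5 CPM in wild type, 10.7, 10.1 and 8.92 CPM in the Ms4a cluster knockouts and 9.67, 11.7 and 8.47 CPM in the Ms4a6c knockouts. The genotypes overlapped fully, with log2 fold changes of 0.01 (interval -0.33 to 0.35) and 0.02 (interval -0.32 to 0.36) in the Ms4a cluster and Ms4a6c knockouts. Trpm5 had fractional counts in 3 of 9 mice, so that a small part of its reads was shared with another annotated gene. In the olfactory epithelium Trpm5 is also known from some sensory neurons, so its level is not that of microvillous cells alone.

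Pou2f3, the POU-domain factor without which tuft cells do not form, lies on chromosome 9 (43123939 to 43210369, minus strand). Its level was 6.54, 8.15 and 6.77 CPM in wild type, 8.22, 5.08 and 5.36 CPM in the Ms4a cluster knockouts and 5.66, 5.77 and 6.88 CPM in the Ms4a6c knockouts. At least 1 mouse of each knockout lay inside or above the wild-type range, and the other 2 of each lay below it. Log2 fold changes were -0.19 (SE 0.20, interval -0.64 to 0.25) in the Ms4a cluster knockout and -0.23 (SE 0.20, interval -0.67 to 0.21) in the Ms4a6c knockout, with adjusted p-values of 0.986 and 0.727 by edgeR. Leaving out 1 mouse moved the former to between -0.452 (without Ms4a cluster knockout 1) and -0.0781 (without Ms4a cluster knockout 2) and the latter to between -0.326 (without Ms4a6c knockout 3) and -0.128 (without wild type 2). Pou2f3 varied most among the 5 members above 1 CPM, at 17.6% over the 9 mice against 9.91% from counting, and 83.0% of the genes with a mean of 5 to 50 CPM varied less.

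Chat and Il25 were near the limit of these libraries. Chat (chromosome 14, 32408203 to 32465989, minus strand) had 3, 4 and 3 expected counts in the wild-type mice, 9, 7 and 7 in the Ms4a cluster knockouts and 5, 9 and 7 in the Ms4a6c knockouts. The corresponding levels were 0.213, 0.222 and 0.171 CPM, then 0.451, 0.698 and 0.351 CPM, then 0.205, 0.558 and 0.446 CPM. All Ms4a cluster knockouts lay above all wild-type mice, as 9.86% of all tested genes did or did in the other direction. The fitted log2 fold change was 1.23 (SE 0.55, interval 0.01 to 2.44), with an unadjusted p of 0.0479 and an adjusted p of 0.968 by edgeR. It was 0.94 (SE 0.55, adjusted p = 0.582) in the Ms4a6c knockout. The wild-type level of Chat rested on 10 expected counts in 3 mice, and the gene overlaps Slc18a3 on its own strand and Gm2990 on the other.

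Il25 (chromosome 14, 54932695 to 54935837, plus strand) had 4, 5 and 2 expected counts in wild type, 4, 3 and 9 in the Ms4a cluster knockouts and 5, 7 and 5 in the Ms4a6c knockouts. The genotypes overlapped. Fitted log2 fold changes of 0.50 (interval -0.82 to 1.82) and 0.47 (interval -0.83 to 1.78) for Il25 leave room for anything from 0.567 to 3.53 times and from 0.561 to 3.44 times the wild-type level. Leaving out 1 mouse moved these values to between 0.105 (without Ms4a cluster knockout 3) and 0.773 (without Ms4a cluster knockout 1) and to between 0.151 (without wild type 3) and 0.736 (without Ms4a6c knockout 1).

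**Figure D3:**
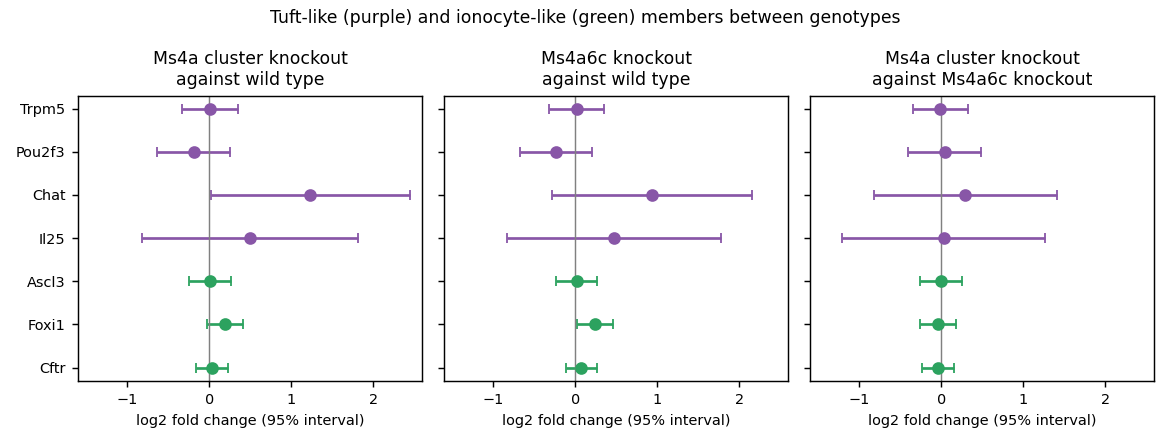
Log2 fold change of each member (points) with its 95% interval (bars) from the edgeR fit, for each knockout against wild type and for the Ms4a cluster knockout against the Ms4a6c knockout, with tuft-like members in purple and ionocyte-like members in green. The intervals are narrow for Ascl3, Foxi1, Cftr and Trpm5 and wide for Chat and Il25; those of Chat (Ms4a cluster knockout) and Foxi1 (Ms4a6c knockout) leave out 0 before adjustment.

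Between the knockouts the members differed little in the fit. The log2 fold change of the Ms4a cluster knockout against the Ms4a6c knockout was -0.0023 for Ascl3, -0.05 for Foxi1, -0.04 for Cftr, -0.01 for Trpm5 and 0.04 for Pou2f3, with 95% intervals that reached at most 0.48 in size. It was 0.29 for Chat (interval -0.83 to 1.41) and 0.03 for Il25 (interval -1.21 to 1.26). For 0 of 7 members were the values of the knockouts separate, beside 16.0% of all tested genes. The 7 members had a median log2 fold change of 0.03 in the Ms4a cluster knockout and 0.07 in the Ms4a6c knockout against wild type, beside 0.007 and -0.002 over all tested genes.

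No pair of members was called as rising and falling together from mouse to mouse. Over all 9 mice 0 of 21 pairs passed an adjusted p under 0.05 by Pearson's r or Spearman's rho. By r 1 pair, Foxi1 with Cftr, had an unadjusted p under 0.05 (r = 0.67, rho = 0.583, exact permutation p of 0.0489 and 0.108, adjusted p of 0.56 and 0.509, and r = 0.51 without the 2 mice farthest from the median of Foxi1). By rho the pair was instead Trpm5 with Ascl3 (r = 0.661, rho = 0.733, exact permutation p of 0.0533 and 0.0311, adjusted p of 0.56 and 0.412). The plan had been to give no pooled r if the mice fell into separate clusters. The values over 9 mice depart from that plan. Because the 2 gland-rich libraries form a cluster of their own, the pairs were also correlated over the other 7 mice, a choice made after the data were seen. Again 0 pairs passed an adjusted p under 0.05 by r or rho, while 2 had an unadjusted p under 0.05 by r (two-sided exact permutation over all pairings, on the log2 of CPM plus 0.5). By rho Trpm5 with Cftr, Il25 with Foxi1 (0.857, exact permutation p = 0.0238) and Il25 with Ascl3 (-0.786, exact permutation p = 0.048) were under 0.05 before adjustment. Il25 was near the limit of these libraries. Within the ionocyte-like set Pearson's r over 7 mice was 0.51 for Foxi1 with Cftr, -0.531 for Ascl3 with Foxi1 and -0.733 for Ascl3 with Cftr (rho of 0.143, -0.714 and -0.571, exact permutation adjusted p of r of 0.431, 0.431 and 0.314). Over 9 mice the last 2 had an r of 0.424 and 0.0193, so their sign rests on the 2 gland-rich libraries. Trpm5 with Pou2f3, the better counted pair of the tuft-like set, had an r of 0.248 and a Spearman's rho of 0.357 (exact permutation adjusted p of 0.747 and 0.622). Over the 7 mice the pair farthest from 0 crossed the sets, Trpm5 with Cftr, with an r of -0.856 and a rho of -0.893 (exact permutation p of 0.0147 and 0.0123, adjusted p of 0.309 and 0.25), and r was -0.884 without the 2 mice farthest from the median of Trpm5. Over 9 mice this pair had an r of -0.424 (exact permutation p = 0.256). Pou2f3 with Ascl3 had an r of 0.784 over 7 mice and 0.61 over 9 (for 7 mice, exact permutation p = 0.0359, adjusted p = 0.314), and the former was 0.472 without the 2 mice farthest from the median of Pou2f3.

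For the 5 members above 1 CPM, the genes most alike in level over the 9 mice were ranked by Pearson's r among 16532 genes with a mean of at least 1 CPM. With so many candidates and 9 mice, high values are found for any gene, and they are given as a description. For Trpm5 they were Aamdc (r = 0.921), Olfr38 (0.913), Primpol (0.893), Efcab11 (0.892) and Slc25a14 (0.888). For Pou2f3 they were Olfr59 (0.947), Mettl6 (0.933), Slc25a40 (0.913), Stx11 (0.909) and 5830454E08Rik (0.894). For Ascl3 they were Zc3h10 (0.957), Wdr18 (0.956), D1Ertd622e (0.929), Afap1 (0.926) and Rprm (0.925). For Foxi1 they were Rpap1 (0.969), Colca2 (0.966), Olfr657 (0.963), Scarb1 (0.954) and Prpf40b (0.951). For Cftr they were Chrdl2 (0.983), Polr2a (0.971), Pfkfb4 (0.936), Glyatl3 (0.934) and Mms22l (0.933). Without the 2 gland-rich libraries, over 7 mice, r for these genes ran from 0.839 (Rprm with Ascl3) to 0.978 (Stx11 with Pou2f3). None of the 25 genes stood on 2 of these lists or on the tuft and ionocyte lists described next.

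The tuft programme around the members was measured with 53 genes in 5 lists, of which 46 were tested. In the Ms4a cluster knockout 0 of 46 were called, with 1 at an unadjusted p under 0.05, beside 0.0258% and 4.93% of all tested genes. In the Ms4a6c knockout 1 of 46 was called, Gng13, which was lower, and 2 had an unadjusted p under 0.05, beside 0.435% and 10.5% of all tested genes. The median log2 fold change of the 46 genes was 0.06 and 0.08, beside 0.007 and -0.002 over all tested genes.

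In the taste-type cascade, the type 3 inositol trisphosphate receptor Itpr3 stood at 27.6 ± 4.49 CPM over the 9 mice and the regulator Rgs13 at 3.87 ± 0.661 CPM. The G protein subunit gustducin (Gnat3) reached only 0.349 ± 0.203 CPM and the receptor gene Tas1r2 was at 0 counts in each mouse. The tested list held 8 of 12 genes, and the other 4 (Tas1r2, Sucnr1, Ffar3 and Rgs21) had at most 1 count in any mouse. Per kilobase, Gng13 stood 258 times above Trpm5. Gng13 encodes a G protein gamma subunit that taste cells and tuft cells share with olfactory sensory neurons.

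Gng13 (chromosome 17, 25717171 to 25719406, plus strand) stood at 347, 371 and 359 CPM in the wild-type mice, 421, 332 and 367 CPM in the Ms4a cluster knockouts and 179, 198 and 203 CPM in the Ms4a6c knockouts. All Ms4a6c knockouts lay below all other mice. In either direction, 18.3% of all tested genes were separate between these knockouts and wild type, and 16.0% between the knockouts. Gng13 fell by 0.89 on the log2 scale in the Ms4a6c knockout (SE 0.09, adjusted p = 0.00121 by edgeR). This call held when any 1 wild-type or Ms4a6c knockout mouse was left out. The log2 fold change then ran from -0.932 to -0.842 and the edgeR adjusted p from 0.00453 to 0.0111. For Gng13 in the Ms4a cluster knockout the log2 fold change was 0.06 (SE 0.09, adjusted p = 0.999), and that of the Ms4a cluster knockout against the Ms4a6c knockout was 0.95 (adjusted p = 0.00073). Trpm5 and Pou2f3 did not share this pattern in their values. Gng13 had fractional counts in all 9 mice and overlaps Chtf18 on the other strand. Over the 7 genes of sustentacular cells, another epithelial type, the summed level was 30600 to 32400 CPM in the Ms4a6c knockouts and 24900 to 26500 CPM in wild type. None of those 7 was called. At an unadjusted p under 0.05 by edgeR, 3 of them were higher and 1 was lower, beside 10.5% of all tested genes in either direction. The 10 markers of mature sensory neurons summed to 13600 to 14200 CPM in the Ms4a6c knockouts and 12300 to 14100 CPM in wild type. The part of these shifts in the level of Gng13 was not tested.

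The list of tuft identity and cytoskeleton had 15 tested genes and 0 called in either knockout. Ppp1r1b, Dclk1 and Espn were its highest genes per kilobase, at 17.7, 4.79 and 2.37. Dclk1, a kinase that marks tuft cells of the gut, is also a neuronal gene. Among the 7 genes of eicosanoid synthesis, the pathway by which tuft cells make leukotrienes and prostaglandins, 0 were called. Ptges, Alox5ap and Ptgs1 led at 4.21, 4.15 and 2.59 CPM per kilobase. The 5-lipoxygenase gene Alox5 had levels of 4.47 ± 0.0291 CPM in wild type and 5.55 ± 0.414 CPM in the Ms4a cluster knockout (log2 fold change 0.32, SE 0.13, edgeR adjusted p = 0.968).

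Of the other cholinergic genes 5 of 6 were tested and 0 were called by edgeR in any comparison. The vesicular acetylcholine transporter Slc18a3, which lies within Chat, had at most 1 count in any mouse, and the choline transporter Slc5a7 averaged 0.0969 CPM, so that the whole acetylcholine-making set was at or near the limit. Acetylcholinesterase (Ache), which degrades the transmitter, stood at 5.33 ± 0.444 CPM in wild type, 7.12 ± 0.224 CPM in the Ms4a cluster knockout and 4.15 ± 1.06 CPM in the Ms4a6c knockout. The log2 fold change of Ache between the knockouts was 0.79 (SE 0.19), with an adjusted p of 0.182 by edgeR and 0.0493 by DESeq2, which called it. The receptor genes Chrm3 and Chrna3 stood at 1.25 and 0.036 CPM per kilobase.

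In the type 2 circuit on which Il25 acts, 11 of 13 genes were tested and 0 were called. The alarmin Il33, at 280 ± 29.4 CPM, was the highest of this list per kilobase (96.9), followed by the receptor chains Il13ra1 (17.8) and Il4ra (6.16). The cytokine genes Il13 and Il5 had at most 1.25 counts in any mouse. Il4ra stood at 34.3 ± 0.835 CPM in wild type and 39.9 ± 4.59 CPM in the Ms4a6c knockout (log2 fold change 0.22, SE 0.09, edgeR adjusted p = 0.448).

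The ionocyte programme was measured with 31 genes in 3 lists, of which 29 were tested. In the Ms4a cluster knockout 0 of 29 were called and 2 had an unadjusted p under 0.05, beside the same 0.0258% and 4.93%. In the Ms4a6c knockout 1 of 29 was called, Coch, which was lower, and 6 had an unadjusted p under 0.05, 3 of them higher and 3 lower, beside the same 0.435% and 10.5%. The median log2 fold change of the 29 genes was 0.02 in the Ms4a cluster knockout and -0.02 in the Ms4a6c knockout, beside 0.007 and -0.002 over all tested genes.

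The 7 proton-pump subunits had 0 genes called by edgeR in each comparison. The highest per kilobase were Atp6v1a (46.1), Atp6v1e1 (38.5) and Atp6v1c2 (31.1), among which are subunits that most cells use, such as Atp6v1a. Atp6v1b1, the form typical of acid-secreting cells, stood at 119 ± 2.35 CPM in wild type, 117 ± 7.05 CPM in the Ms4a cluster knockout and 107 ± 8.94 CPM in the Ms4a6c knockout. Atp6v0d2 stood at 20.5 ± 2.49 CPM in wild type, 19.9 ± 2.72 CPM in the Ms4a cluster knockout and 13.8 ± 2.57 CPM in the Ms4a6c knockout. The log2 fold change of Atp6v0d2 in the Ms4a6c knockout was -0.56 (SE 0.15), with an adjusted p of 0.203 by edgeR and 0.0484 by DESeq2, which called it, and that of Atp6v1e1 was -0.17 (SE 0.06), with an adjusted p of 0.364.

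Of the 12 ion channels and carriers, 11 were tested and 0 were called. The sodium-potassium-chloride carrier Slc12a2, the carbonic anhydrase Car2 and the potassium channel Kcnj15 were highest per kilobase, at 34.5, 32.9 and 17.6. Car2 in the Ms4a6c knockout had a log2 fold change of 0.21 (SE 0.08, adjusted p = 0.363 by edgeR). The authors used Car2 as a marker of necklace neurons, a subset of olfactory sensory neurons. Its level is therefore not that of ionocyte-like cells alone.

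In the list of ionocyte identity, 11 of 12 genes were tested, and Foxi3 was at 0 counts in each mouse. Foxi2, a relative of Foxi1, stood at 4.24 ± 1 CPM in wild type, 4.7 ± 0.364 CPM in the Ms4a cluster knockout and 6.65 ± 0.566 CPM in the Ms4a6c knockout. Its log2 fold change in the Ms4a6c knockout was 0.64 (SE 0.18, adjusted p = 0.235 by edgeR). Pde1c, a phosphodiesterase also known from the cilia of olfactory neurons, stood at 442 ± 6.37 CPM in wild type and 382 ± 34.4 CPM in the Ms4a cluster knockout (log2 fold change -0.21, SE 0.08, edgeR adjusted p = 0.968). The neuropeptide gene Npy stood at 1.66 ± 0.102 CPM in wild type and 3.83 ± 2.47 CPM in the Ms4a cluster knockout (log2 fold change 1.16, SE 0.41, edgeR adjusted p = 0.968). Coch, Pde1c and Moxd1 were the highest of the list per kilobase, at 131, 21.3 and 13.7.

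Coch (chromosome 12, 51593341 to 51605771, plus strand) encodes cochlin, a secreted matrix protein best known from the inner ear. It stood at 394, 460 and 441 CPM in the wild-type mice, 494, 428 and 466 CPM in the Ms4a cluster knockouts and 304, 279 and 275 CPM in the Ms4a6c knockouts. All Ms4a6c knockouts lay below all other mice, while Ascl3, Foxi1 and Cftr in those knockouts lay within or above the wild-type range. Such a separation, in either direction, was shown by 18.3% of all tested genes against wild type and 16.0% between the knockouts. Coch fell by 0.59 on the log2 scale in the Ms4a6c knockout (SE 0.08, adjusted p = 0.0123 by edgeR). Against wild type, Coch had a log2 fold change of 0.10 (SE 0.08, adjusted p = 0.971) in the Ms4a cluster knockout, and it was 0.69 (SE 0.08, adjusted p = 0.00368) for the Ms4a cluster knockout against the Ms4a6c knockout. In the Ms4a6c knockout the call for Coch was lost when wild type 2, wild type 3, Ms4a6c knockout 2 or Ms4a6c knockout 3 was left out, with log2 fold changes of -0.546, -0.578, -0.581 and -0.566 and adjusted p-values of 0.0721, 0.07, 0.0766 and 0.0844 by edgeR.

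**Figure D4:**
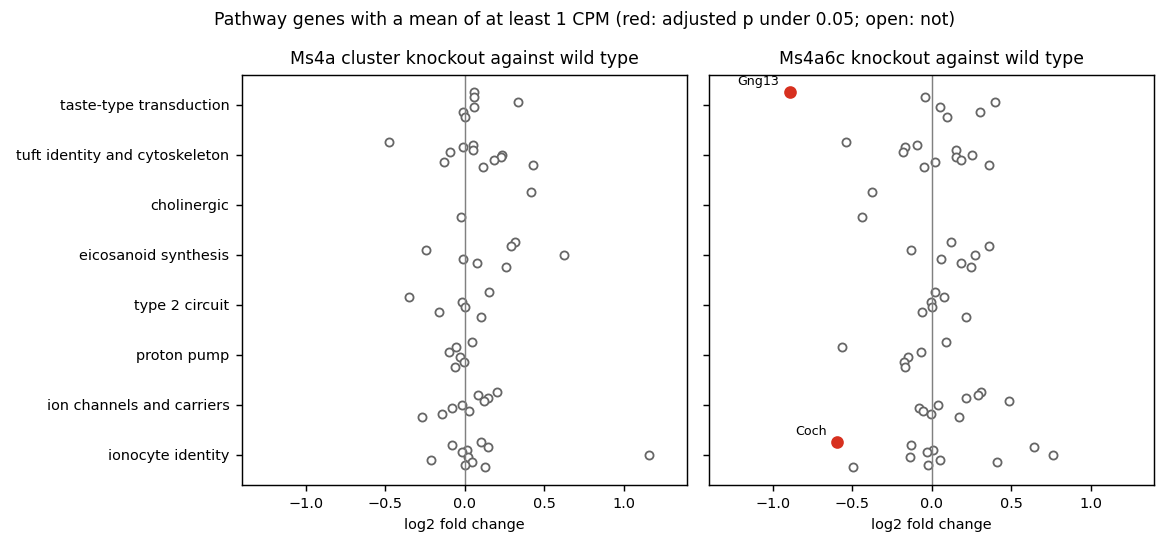
Log2 fold change against wild type of the pathway genes with a mean of at least 1 CPM, by list, for the Ms4a cluster knockout (left) and the Ms4a6c knockout (right), with called genes in red and the others open. Gng13 and Coch, both lower in the Ms4a6c knockout, are the called genes; the Ms4a cluster knockout has 0.

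The calls for Gng13 and Coch in the Ms4a6c knockout against wild type were lost on plain library totals but not under the other scaling tried. With DESeq2 size factors in the edgeR fit both were called (adjusted p of 0.000962 and 0.00924). Without the 2 gland-rich libraries, on TMM, their log2 fold changes were -0.916 and -0.653 (adjusted p of 0.000768 and 0.00135 by edgeR). With CPM of plain totals, in which the gland-rich libraries keep their weight, wild type 1 stood at 244 CPM for Gng13 and 276 CPM for Coch, beside 400 to 408 CPM and 492 to 506 CPM in the other wild-type mice. The log2 fold changes of all tested genes then moved by a median of 0.18 in the Ms4a6c knockout. Neither gene was called (log2 fold changes of -0.72 and -0.43, adjusted p-values of 0.887 and 0.952 by edgeR). The lower level of Gng13 in the Ms4a6c knockouts kept its order on the plain scale, at 198 to 228 CPM, below every other mouse, whereas Coch in wild type 1 lay below the Ms4a6c knockouts' 299 to 337 CPM.

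**Figure D5:**
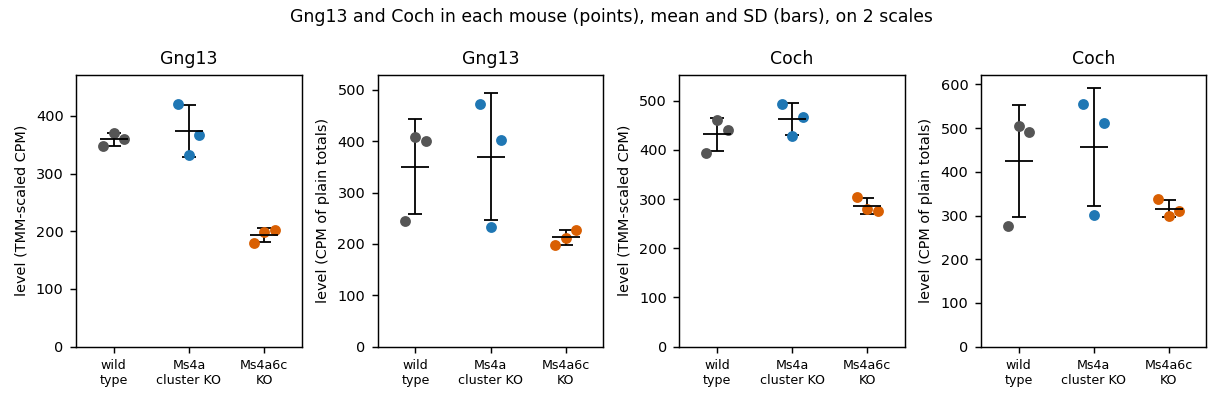
Gng13 and Coch in each mouse (points) by genotype with the mean and SD of 3 mice (bars), each in TMM-scaled CPM and in CPM of plain library totals. On the TMM scale the Ms4a6c knockouts (179 to 203 and 275 to 304) lie below all other mice; on the plain scale wild type 1 and Ms4a cluster knockout 2, the gland-rich libraries, drop to 244 and 233 for Gng13 and to 276 and 302 for Coch.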

How the data were processed

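Poly-A RNA of the main olfactory epithelium of 9 mice was made into directional libraries and sequenced as read pairs. The authors aligned the reads with STAR 2.6.1 and quantified genes with RSEM 1.3.1 in the DolphinNext pipeline on GENCODE M25 (build mm10), and deposited expected counts, without normalization, for 55291 genes. RSEM splits reads that fit several genes, so overlapping genes can exchange counts, and whether strand was used in counting is not given in the sources used here. The submitters' notes name DESeq2 1.30.1 for their own test. Genotype and replicate number came from the sample labels.

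The expected counts, rounded to integers, were kept where a gene reached 10 in total across mice, which left 23225 genes. TMM factors, a single edgeR 4.0.16 quasi-likelihood fit of the 9 mice (R 4.3.3) and Benjamini-Hochberg adjustment over these genes followed, with a threshold of 0.05. Levels are CPM on TMM-scaled libraries. DESeq2 1.42.0, other scalings and filters, a replicate block, a gland covariate and leaving out mice were the alternatives. The edgeR and correlation steps were tested on simulated data.

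Totals were 13954591 to 21987174 counts per mouse. A limit of 3 counts then corresponds to 0.123 to 0.299 CPM. Reads have no molecular identifiers, so limits cover counting error only. Exonic lengths and positions are those of GENCODE M21 (GRCm38), matched by transcript for 99.9% of tested genes, and upstream sequences from RefSeq.

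The members, gene lists and motifs were chosen with earlier results of these data known. Named pathway genes are those with an adjusted or unadjusted p under 0.05 and, of each list, the 3 highest per kilobase. A gene that meets this rule is not reported here. A few further genes (Gnat3, Atp6v1b1, untested genes and the transporter Slc5a7) were named after their values were seen. The same-numbered mice of different genotypes did not vary together, so the replicate number was not used as a pair.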

Additional observations from a re-analysis of the deposited data

Results flagged for a closer look

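In 2 pathway genes the effects of the knockouts differed by the direct edgeR test between them, with Benjamini-Hochberg adjustment over all tested genes. Gng13 was higher in the Ms4a cluster knockout than in the Ms4a6c knockout by a log2 fold change of 0.950 (adjusted p = 0.00073), with all 3 Ms4a cluster knockouts above all 3 Ms4a6c knockouts. For Coch the log2 fold change was 0.694 (adjusted p = 0.00368), again with the 3 mice of each genotype apart. The values of these genotypes were separate for 16.0% of all tested genes. Groups of this size were not searched for single mice that stand out. None of the 7 members met this rule.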

How the results depend on the processing

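Of the 7 members 0 were called in any of the 3 comparisons under any alternative run that gave them an adjusted p. Of 309 refitted log2 fold changes of members, 270 kept their direction and 39 changed sign; none of the 39 passed the threshold. Leaving out 1 mouse at a time, the log2 fold change against wild type ranged, in the Ms4a cluster knockout, from -0.0961 to 0.0788 for Trpm5, -0.112 to 0.0721 for Ascl3, -0.0593 to 0.0969 for Cftr and -0.0392 to 0.133 for Gng13. In the Ms4a6c knockout it ranged from -0.117 to 0.12 for Trpm5 and -0.0904 to 0.0694 for Ascl3. Between the knockouts it ranged from -0.112 to 0.123 for Trpm5, -0.219 to 0.156 for Pou2f3, -0.0594 to 0.611 for Chat, -0.369 to 0.309 for Il25, -0.125 to 0.0588 for Ascl3, -0.122 to 0.0445 for Foxi1 and -0.133 to 0.0231 for Cftr. The count of ionocyte pathway genes called in the Ms4a6c knockout ranged from 0 to 1.

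Leaving out the 2 gland-rich libraries, and plain library totals for the comparisons of genotypes, were added after the data were seen. Without the 2 gland-rich libraries the sign changed for Trpm5 (-0.109) and Ascl3 (-0.0409) in the Ms4a cluster knockout, for Trpm5 (-0.0833) and Ascl3 (-0.0881) in the Ms4a6c knockout, and for Ascl3 (0.0472), Foxi1 (0.0426) and Cftr (0.0203) between the knockouts. With plain library totals it changed for Trpm5 (-0.0107) in the Ms4a cluster knockout and for Pou2f3 (-0.104) and Il25 (-0.131) between the knockouts, 0 tuft and 0 ionocyte pathway genes were called in the Ms4a6c knockout against wild type or between the knockouts, and 3 of 21 pairs of members were called over 9 mice. With the gland level as a covariate it changed for Trpm5 (-0.0126) and Ascl3 (-0.039) in the Ms4a6c knockout and for Trpm5 (0.032), Il25 (-0.195) and Ascl3 (0.0666) between the knockouts. DESeq2 gave -0.000638 for Trpm5 in the Ms4a cluster knockout and called 2 ionocyte pathway genes in the Ms4a6c knockout (Coch and Atp6v0d2, the latter with a log2 fold change of -0.57 and an adjusted p of 0.0484) and, between the knockouts, 2 tuft pathway genes (Gng13 and Ache, adjusted p of 0.0493 for the latter) and 2 ionocyte pathway genes (Coch and Pde1c, adjusted p of 0.0222 for the latter). The cause was not tested.

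With the replicate number as a block, 0 ionocyte pathway genes were called in the Ms4a6c knockout (Coch, adjusted p = 0.0694 by edgeR), the difference of Trpm5 between the knockouts was 0.00144, and calls over all genes went from 6, 101 and 103 to 2, 71 and 75. Same-numbered mice did not deviate together, with correlations of -0.537 to 0.107 over 16537 genes, and not every mouse correlated best with its own number. At an adjusted p under 0.01 the Ms4a6c knockout also had 0 ionocyte pathway genes. Depth limits Chat and Il25, with 2 to 9 counts a mouse. DESeq2 called 18, 345 and 271 genes in all. Without the 2 gland-rich libraries edgeR called 8, 350 and 147. Chat and Il25 did not pass the filter of edgeR's filterByExpr and have no value there. DESeq2 gave them no adjusted p in the Ms4a6c knockout against wild type.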

Other observations

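Coch lies on chromosome 12, where 14 of 844 tested genes, or 1.66%, were called in the Ms4a6c knockout against wild type by edgeR. On chromosome 17, which holds Gng13, 6 of 1115 tested genes, or 0.538%, were called, beside 0.435% of all 23203 placed genes.

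The other marker lists gave these summed levels. Basal-cell genes summed to 106 to 109 CPM in wild type, 92.2 to 119 CPM in the Ms4a cluster knockout and 107 to 124 CPM in the Ms4a6c knockout. Respiratory ciliated genes summed to 710 to 833, 695 to 802 and 673 to 847 CPM, immune genes to 248 to 412, 240 to 383 and 240 to 274 CPM, and red blood cell genes to 405 to 558, 489 to 1290 and 491 to 1390 CPM in the same order. In these 4 lists 0 genes were called in any comparison.

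The ratio of Foxi1 to Ascl3, which no library scaling affects, was 0.76, 0.7 and 0.683 in the wild-type mice, 0.721, 0.752 and 0.966 in the Ms4a cluster knockouts and 0.799, 0.842 and 0.859 in the Ms4a6c knockouts. The Ms4a6c knockouts lay above the wild-type mice in this ratio, as they did for Foxi1 alone. In either direction, 18.3% of all tested genes were separate in this comparison, and the share over ratios of genes was not computed. The ratio of Pou2f3 to Trpm5 was 0.647 to 0.786 in wild type, 0.505 to 0.77 in the Ms4a cluster knockouts and 0.492 to 0.812 in the Ms4a6c knockouts, and the genotypes overlapped. Both ratios were chosen after the values were seen and were not tested.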
